A study of Mus musculus with 6 samples.

Results

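The angiopoietins *Angpt1* and *Angpt2* and the Tie receptor genes *Tek* and *Tie1* were taken from the RNA sequencing of cultured blood-labyrinth barrier cells by their gene symbols. All 4 symbols were found among the 24421 genes of the deposited count table, and 3 of the 4 were among the 13479 genes with enough reads to be tested. *Tie1* was below that limit. The cells were primary cultures labelled as endothelial, grown from stria vascularis tissue taken on postnatal days 10 to 12. The *Nhe6*-knockout group (3 cultures) came from mice with a targeted disruption of *Nhe6*, and the wildtype group (3 cultures) from mice without it. The labels give C57BL/6N as the background of both groups, whereas the study's text gives the knockout line as backcrossed to another C57BL/6 substrain. Per the study's methods each culture pooled cells of several mice, was purified by fluorescence-activated sorting, was passaged before use and was not treated, so each of the 6 libraries stands for 1 culture and no animal was measured alone.

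Angiopoietins are secreted ligands of Tie2, the receptor tyrosine kinase encoded by *Tek* on endothelial cells. Angiopoietin-1, made mainly by pericytes and other mesenchymal cells, activates Tie2 and is known for keeping vessels quiescent and tight, while angiopoietin-2, released by endothelial cells, acts as a weak or opposing ligand depending on context. Tie1 binds no angiopoietin directly with high affinity and modulates Tie2 in a complex with it. Signals from Tie2 pass through PI3K and AKT, which hold FOXO transcription factors out of the nucleus.

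The reads assigned to genes numbered 25587097 to 29126232 per library. Normalized counts are reads scaled by edgeR's TMM method to the mean library size, errors are SDs over 3 cultures, and log2 fold changes are *Nhe6*-knockout over wildtype. Wildtype replicate 2 stood apart from the others on the first principal component, at 80.1 against -20.3 to -6.04. *Nhe6*-knockout replicates 1 and 2 were much closer to each other (chi-square of 4.89 per gene) than any other pair of 1 genotype (89.6 to 397), although they differed by more than sampling noise. Results that depend on these libraries are given with and without them. Of the markers of endothelial cells, 10 of 21 were tested, and *Cldn5*, *Sox17* and *Robo4* had no read in any library. *Pecam1* had at most 8 reads and *Vwf* at most 25 in a library, while *Emcn*, which encodes endomucin, reached 18393 normalized counts. All 12 fibroblast markers averaged 100 or more normalized counts, so the endothelial label rests on part of its marker list. In bulk RNA, fewer cells of a type and less RNA per cell cannot be told apart.

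Per kilobase of exon, *Angpt1* was the most abundant of the 4 transcripts, with a mean of 1303 normalized counts per kb over the 6 libraries, above 93.4% of the genes tested. *Angpt2* followed at 522 per kb, above 80.3% of the genes tested, and *Tek* at 138 per kb, above 46.1%. *Tie1* was last at 0.0725 per kb. *Angpt1* was above *Angpt2* in 5 of 6 libraries, by a factor of 0.371 to 5.26 across the libraries (two-sided exact sign permutation p = 0.0938, adjusted over the 2 neighbouring pairs p = 0.0938). *Angpt2* was above *Tek* in 6 of 6 libraries, by 1.26 to 9.96 times (exact p = 0.0313, the smallest that 6 libraries can give, adjusted p = 0.0625). Neither step in this order passed the threshold of 0.05 after adjustment, and both levels and order were computed over both genotypes.

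The ligand *Angpt1* lies on chromosome 15 of GRCm38 at 42424723 to 42676977, on the minus strand, with 10 merged exons that span 5205 bp. It was at 5668, 5608 and 9929 normalized counts in the 3 *Nhe6*-knockout libraries and at 4345, 2765 and 12381 in the 3 wildtype libraries. The highest and the 2 lowest values were all wildtype, and the knockout values fell inside the wildtype range. The group level was 7068 ± 2477 (SD, n = 3) with the knockout, and for the wildtype it was 6497 ± 5156 (SD, n = 3). Their difference was small against its error, with a log2 fold change of 0.12 (SE 0.57, 95% interval -1.253 to 1.497, adjusted p = 0.955 in edgeR's quasi-likelihood test). The interval leaves room for more than a doubling in knockout cells or a drop of the same order. Without wildtype replicate 3, the library with the highest level, the log2 fold change was 0.99 (adjusted p = 0.336 in edgeR's test), and without wildtype replicate 2 it was -0.25 (adjusted p = 0.822). The 5′ end of *Angpt1* overlaps an annotated antisense gene, *Gm17473*, over 737 bp of exon, and that gene has no row in the count table. The strand setting of the read counting is not given in the sources used here, so reads of the 2 genes in this stretch cannot be told apart.

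The ligand *Angpt2* lies on chromosome 8 at 18690263 to 18741562, on the minus strand, with 10 merged exons of 3690 bp. It was at 802, 823.5 and 1338 normalized counts in *Nhe6*-knockout and at 1472, 5289 and 1840 in wildtype libraries. Every knockout library was below every wildtype library, although knockout replicate 3 and wildtype replicate 1 were close. The mean level was 988 ± 303 (SD, n = 3) in knockout cells against 2867 ± 2105 (SD, n = 3) in wildtype cells, or 2.90-fold lower (log2 fold change -1.54, SE 0.52, 95% interval -2.801 to -0.2737). This difference had an unadjusted p of 0.0243 and did not pass the threshold after adjustment over all genes (adjusted p = 0.327 in edgeR's test). Of all genes tested, 0.0668% passed that threshold with all 6 libraries, and 9.57% were lower in every knockout library than in any wildtype library (19.9% were without overlap in either direction). The separation of the groups for *Angpt2* is one that many genes had.

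The size of the *Angpt2* difference depended on wildtype replicate 2, which held the highest level. Of all genes tested, 26.8% were highest in that library. Without it the wildtype mean was 1656 and the log2 fold change -0.75 (SE 0.26, adjusted p = 0.191 in edgeR's test). In that library the summed markers of pericytes and smooth muscle were at 40331 normalized counts against 21667 to 27497 in the other 5 libraries, with *Acta2*, the smooth muscle actin, at 16275 against 29.3 to 1204. Of the 13 tested markers of that list, however, 3 were highest and 6 lowest in this library, *Pdgfrb* (7793) and *Des* (4.13) among the lowest. Of the 12 fibroblast markers 5 were highest there, as *Col1a1* at 27187 against 207 to 1228, and 6 were lowest, as *Dcn* at 1863 against 1971 to 4835. The summed macrophage markers were at 145 against 1383 to 3346. The part of these cell type markers in the *Angpt2* level was not tested. *Angpt2* lies within *Mcph1*, a gene on the opposite strand of chromosome 8 (18595131 to 18803189) whose exons do not overlap those of *Angpt2*. *Mcph1* was at 282, 345 and 389 normalized counts in knockout and at 258, 322 and 397 in wildtype libraries (log2 fold change 0.06, SE 0.23, adjusted p = 0.9503 in edgeR's test), so the host gene did not show the separation seen for *Angpt2*.

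**Figure D1:**
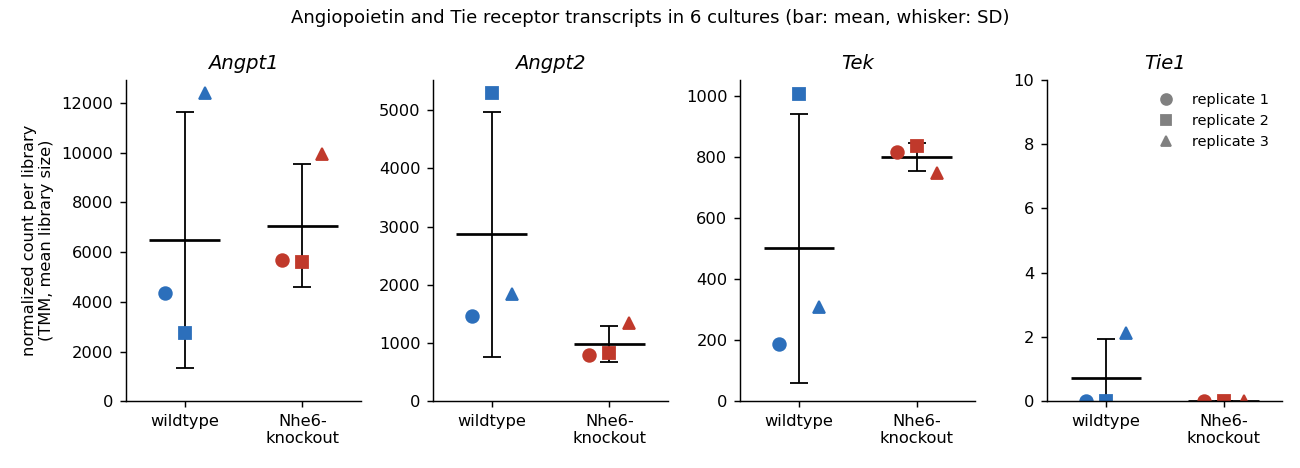
Normalized counts (y axis, TMM scaled to the mean library size, a separate scale for each gene) of *Angpt1*, *Angpt2*, *Tek* and *Tie1* in wildtype (blue) and *Nhe6*-knockout (red) cultures. Symbols mark the replicate number, horizontal bars the mean and whiskers the SD of 3 cultures. For *Angpt2* all knockout points lie below the wildtype points, for *Tek* the knockout points lie between wildtype replicate 2 at 1006 and the other wildtype points at 189 and 309, and for *Tie1* the one point above 0 is wildtype replicate 3 with 2 reads.

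The balance of both ligands was compared within each library as the ratio of *Angpt2* to *Angpt1* per kb of exon. It was 19.97%, 20.72% and 19.01% in the knockout libraries and 47.79%, 269.8% and 20.97% in the wildtype libraries. The knockout ratios lay within a narrow band, while the wildtype ratios ranged from just above that band to a library in which *Angpt2* exceeded *Angpt1*. On the log2 scale the ratio was -2.33 ± 0.062 (SD, n = 3) in knockout and -0.63 ± 1.88 (SD, n = 3) in wildtype cultures, a difference of -1.70 (two-sided exact permutation p = 0.1, the smallest that 3 against 3 can give). Without wildtype replicate 2 the difference was -0.67. Without knockout replicate 1 or 2, the 2 cultures that were much alike, it was -1.70 or -1.73. Each of these had an exact permutation p of 0.2, the smallest possible with 3 against 2. The wildtype replicate 3 ratio was less than 2 percentage points above the knockout values, so the gap between the groups rested on wildtype replicates 1 and 2.

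**Figure D2:**
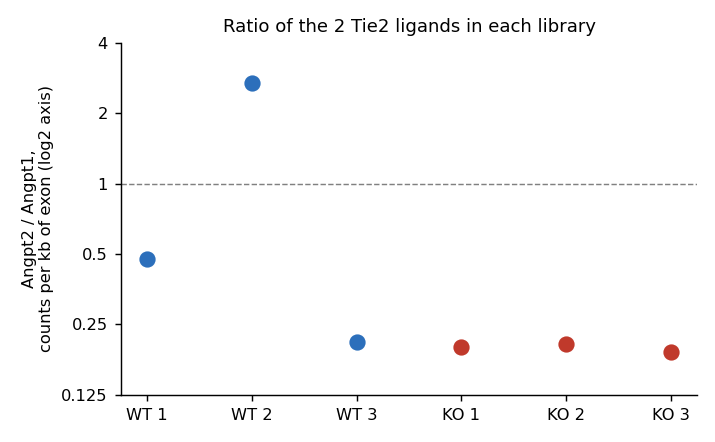
Ratio of *Angpt2* to *Angpt1* normalized counts per kb of exon (y axis, log2 scale) in each library (x axis, WT wildtype in blue, KO *Nhe6*-knockout in red). The dashed line marks equal levels. Wildtype replicate 2 is above it at 2.698, and the 3 knockout libraries lie between 0.1901 and 0.2072, next to wildtype replicate 3 at 0.2097.

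The receptor gene *Tek* lies on chromosome 4 at 94739289 to 94874976 on the plus strand (23 merged exons, 4712 bp). Its paralogue *Tie1* is on the same chromosome at 118471191 to 118490061 on the minus strand (22 merged exons, 4917 bp). RefSeq promoter windows of GRCm38.p6, from 250 bases before to 50 after the start of transcription, were available for these 2 of the 4 genes. The gene positions are from GENCODE M21, whose *Tie1* start at 118490061 lies upstream of the RefSeq start. Most bases of the *Tie1* window therefore lie within the GENCODE gene, whereas for *Tek* both annotations give the same start. The windows are shown because the receptors differed so far in level, with *Tek* read in every library and *Tie1* in 1. Capitals mark the core letters GGAA of ETS factors, a family to which many endothelial regulators belong, read on either strand (TTCC on the strand shown). The sequences run 5′ to 3′ in the direction of transcription.
*Tek*, chr4:94739039-94739338 (+): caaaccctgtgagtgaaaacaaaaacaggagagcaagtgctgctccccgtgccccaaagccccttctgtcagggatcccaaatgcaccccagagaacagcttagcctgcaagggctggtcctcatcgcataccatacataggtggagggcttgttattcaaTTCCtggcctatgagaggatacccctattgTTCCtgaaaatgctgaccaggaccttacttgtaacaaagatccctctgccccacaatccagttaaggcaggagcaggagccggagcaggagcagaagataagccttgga
*Tie1*, chr4:118489800-118490099 (-): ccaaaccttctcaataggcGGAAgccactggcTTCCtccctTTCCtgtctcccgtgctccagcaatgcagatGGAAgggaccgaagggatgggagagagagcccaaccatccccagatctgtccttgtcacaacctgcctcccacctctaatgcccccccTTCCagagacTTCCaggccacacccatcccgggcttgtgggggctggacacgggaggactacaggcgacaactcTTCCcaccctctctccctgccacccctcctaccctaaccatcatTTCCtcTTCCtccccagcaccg

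The *Tek* window held 2 ETS cores and the *Tie1* window 9. At least 2 cores were found in 84.6% of 32544 distinct RefSeq promoter windows of this length, and at least 9 in 1.59%, so the *Tie1* window was among the richest in these letters. The letters GATA (either strand) were found at 2 places in the *Tek* window and none in the *Tie1* window, against a share of 57.7% of all windows. CACCC, the core of KLF factors, was found at 1 and 3 places (57.7% of all windows), and the forkhead letters TGTTTAC at 0 in both (3.66% of all windows). No match overlapped a match of another of these motifs. These are matches of letters in the reference sequence and not measured binding sites.

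*Tek* was at 816, 837 and 748 normalized counts in *Nhe6*-knockout libraries and at 189, 1006 and 309 in wildtype libraries. The knockout libraries were alike, with a coefficient of variation of 5.84%, and the wildtype libraries were not, with 88.0%. The groups overlapped through wildtype replicate 2 alone, which was above all knockout libraries while the other wildtype libraries were below them. Knockout cultures averaged 800 ± 46.7 (SD, n = 3), and wildtype cultures averaged 501 ± 441 (SD, n = 3). The log2 fold change was 0.67 (SE 0.59, 95% interval -0.7436 to 2.093, adjusted p = 0.723 in edgeR's test), which does not separate the genotypes.

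Without wildtype replicate 2 the wildtype mean of *Tek* was 249, and the log2 fold change was 1.68 (SE 0.24, adjusted p = 0.0342 in edgeR's test). In that fit 2.88% of 13728 genes passed the threshold, and 1.62% passed it in the direction of a higher level in knockout cells. When knockout replicates 1 and 2 were also summed as 1 culture, an analysis added after seeing the data, the log2 fold change stayed at 1.66 (SE 0.30) but the adjusted p was 0.147 in edgeR's test. *Tek* thus passed the threshold in 1 of 15 alternative analyses and had a log2 fold change above 0 in all 15 of them. Growth-state and endothelial genes are given beside *Tek* for comparison. The log2 fold change of cell cycle genes was above 0 for 12 of 12 (median 2.74 against -0.02 over all genes tested), with sums of 7513 to 13570 normalized counts in knockout and 2300 to 3549 in wildtype libraries. None of the 12 passed the adjusted threshold with all 6 libraries in edgeR's test, and 11 had an unadjusted p under 0.05 (11.8% of all genes tested did). Without wildtype replicate 2, 8 passed the threshold (2.88% of all genes in that fit did). When knockout replicates 1 and 2 were also summed, 1 of 13586 genes passed it, and that gene was lower in knockout cells. Of the 10 tested endothelial markers, 5 had a log2 fold change below 0 and 5 above 0. *Cdh5*, the endothelial cadherin, was at 220, 232 and 179 in knockout against 2509, 5200 and 3470 in wildtype libraries (adjusted p = 0.0133 in edgeR's test). No other tested marker of this list passed the threshold. *Esam*, *Flt1*, *Cd34* and *Kdr* had log2 fold changes of -3.54, -1.79, -1.17 and -0.42. Those of *Emcn*, *Eng*, *Cd93*, *Plvap* and *Egfl7* were 0.68, 0.76, 1.23, 0.17 and 0.09. The markers with an unadjusted p under 0.05 in that test were *Cdh5*, *Flt1* and *Esam*, all with a log2 fold change below 0. Without wildtype replicate 2 the log2 fold changes of *Emcn*, *Eng* and *Cd93* were 0.11, 0.33 and 0.71, and that of *Cdh5* was -3.83. In that fit *Esam*, *Flt1*, *Cd34*, *Plvap* and *Egfl7* were also below 0, and *Kdr* was above 0. The part of these differences in the *Tek* level was not tested.

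*Tie1* had 0 reads in each of the 3 knockout libraries and 0, 0 and 2 reads in the wildtype libraries. A count of 0 allows up to 3 reads, or 0.103 to 0.117 CPM of the reads on genes in these libraries, for counting error alone. Relative to that limit, *Tek* per kb was at least 67.1-fold higher than *Tie1* in wildtype replicate 1 and at least 339-fold higher in wildtype replicate 2, and the 3 knockout libraries lay between these at 267- to 313-fold. In wildtype replicate 3, which had the reads, the ratio was 151 (exact 95% interval 41.4 to 1251). The receptor pair was therefore represented by *Tek* with next to no *Tie1* in every culture, and no difference in *Tie1* between the genotypes was detectable at this depth. The log2 ratio of *Tie1* to *Tek* per kb differed by -1.88 between the genotypes (exact permutation p = 0.4), by -0.91 without wildtype replicate 3 and by -2.95 without wildtype replicate 2. With 0 *Tie1* reads in 5 of 6 libraries, this value is set by the *Tek* level, the 0.5 added to each count and the 2 reads of wildtype replicate 3.

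**Figure D3:**
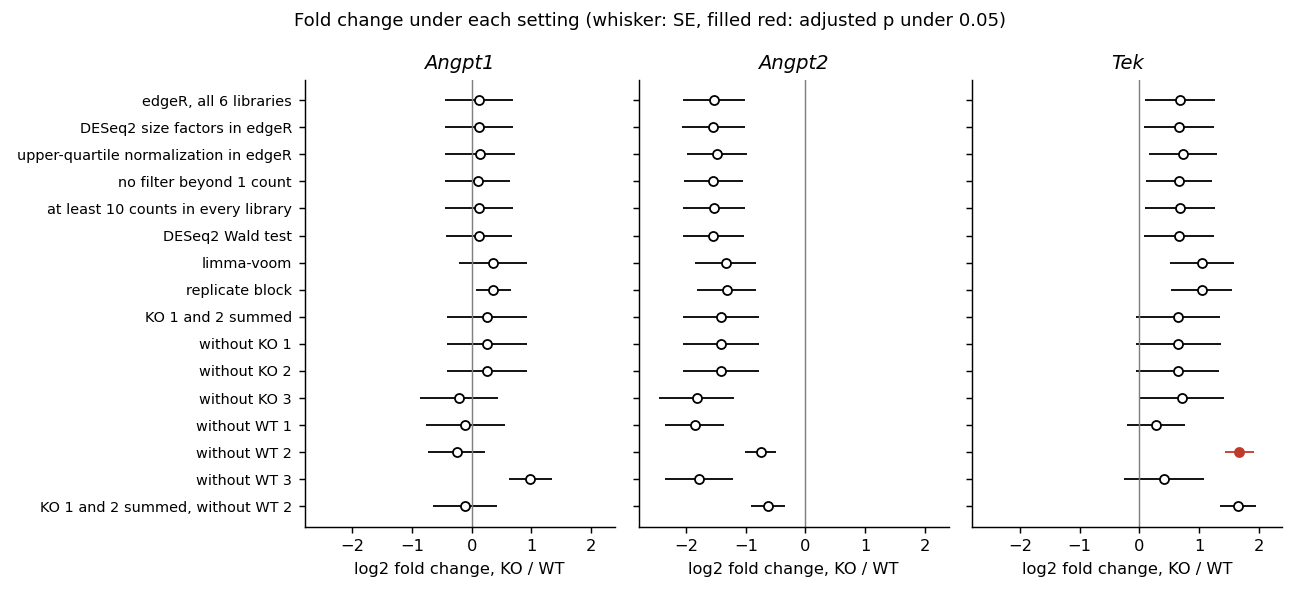
Log2 fold change of *Angpt1*, *Angpt2* and *Tek* (x axis, KO *Nhe6*-knockout over WT wildtype) in the analysis of all 6 libraries and in 15 alternatives (y axis). Points are the estimates, whiskers 1 SE, and a filled red point marks an adjusted p under 0.05. *Angpt2* is below 0 and *Tek* above 0 throughout, *Angpt1* lies on either side of 0, and the one filled point is *Tek* without wildtype replicate 2.

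The genes whose pattern over the 6 libraries was most like that of each member were found by the root-mean-square difference of centred log2 normalized counts, among 11136 genes with a mean of at least 100. For *Angpt1* this was *Ogn*, which encodes the matrix proteoglycan osteoglycin, with a difference of 0.0456 on the log2 scale, while *Angpt1* itself deviated by 0.719 from its own mean. *Ogn* was at 45616, 41173 and 79633 in knockout and at 34037, 22146 and 97527 in wildtype libraries, with the same high and low libraries as *Angpt1*. *Kctd12* (0.179) and *Greb1l* (0.187) followed. For *Angpt2* the nearest genes were *Fzd6*, a Wnt receptor, at 0.118, *Emp2*, a membrane protein, at 0.146 and *Pdgfc*, a platelet-derived growth factor, at 0.155, each highest in wildtype replicate 2. For *Tek* they were *Begain* (0.0657), *Igsf9b* (0.212) and *Elovl6*, a fatty acid elongase (0.215). *Begain* was at 178, 189 and 178 in knockout and at 40.1, 242 and 66.3 in wildtype libraries. These genes were picked from many for their likeness over 6 shared libraries, which makes the numbers a description.

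**Figure D4:**
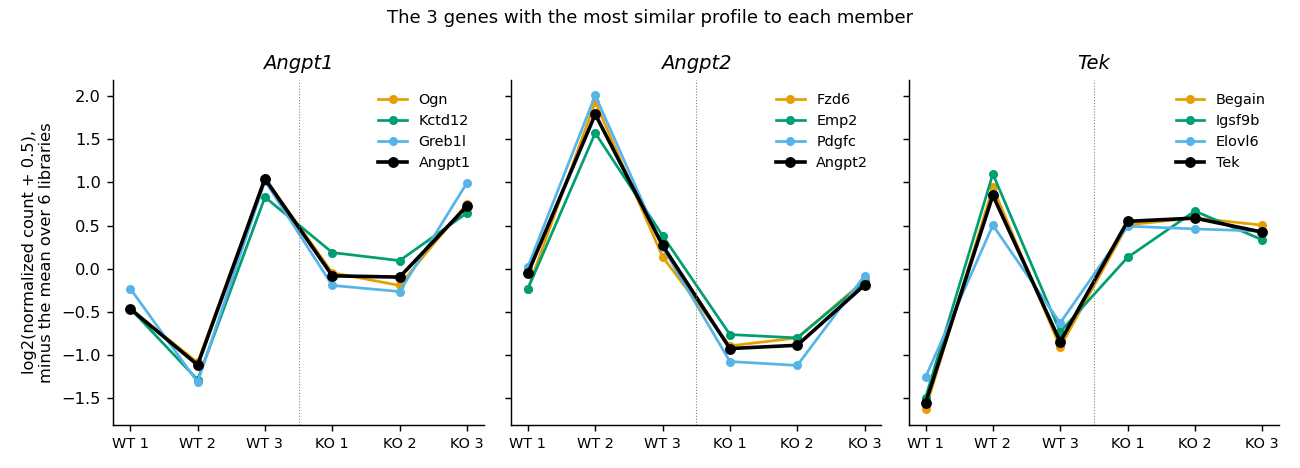
Profiles of *Angpt1*, *Angpt2* and *Tek* (black) and of the 3 genes most like each (coloured) over the 6 libraries (x axis, WT wildtype, KO *Nhe6*-knockout). The y axis is the log2 normalized count (0.5 added) minus the gene's mean over the libraries. The genes near *Angpt2* peak in wildtype replicate 2, and those near *Tek* are low in wildtype replicates 1 and 3.

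Genes around the receptors were described from 5 lists of 69 genes, of which 60 were tested. None passed the adjusted threshold in edgeR's test, 9 of the 60 had an unadjusted p under 0.05 (11.8% of all genes tested did), and DESeq2's Wald test called 4 (*Epas1*, *Fbxo32*, *Foxc2* and *Shc1*, against 4.69% of all genes with an adjusted p in that test). These counts were near the shares over all genes. Their median log2 fold change was -0.03, against -0.02 over all genes tested, with 34 below and 26 above 0. Groups did not overlap for 13 of the 60 (21.7%), close to the 19.9% over all genes tested.

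Among relatives of the ligands, 5 of 8 were tested and none had an unadjusted p under 0.05 in edgeR's test, with a median log2 fold change of -0.40. *Angpt4*, the remaining angiopoietin, had at most 20 reads in a library, and *Angptl8* had none. *Angptl2*, a secreted angiopoietin-like protein, was the most abundant at 1715, 1846 and 2499 in knockout and 2070, 2478 and 2275 in wildtype libraries. *Angptl4*, an inhibitor of lipoprotein lipase, was at 588, 670 and 665 against 547, 344 and 641, with overlapping groups in both cases.

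Among 8 partners of the receptors at the cell surface and in the matrix, 7 were tested, with a median log2 fold change of 0.12. *Ptprb*, the phosphatase that removes phosphate from Tie2, was too low for the test, with 118 normalized counts in wildtype replicate 2 and 2.12 to 16.1 in the other libraries. *Svep1*, a matrix protein that binds Tie1, was at 6015, 5876 and 7872 in knockout and at 2700, 2909 and 6553 in wildtype libraries (log2 fold change 0.70, SE 0.37, adjusted p = 0.520 in edgeR's test), so its groups overlapped through wildtype replicate 3. *Itgb3*, the integrin beta 3 chain, had the one unadjusted p under 0.05 of this list, at 140, 182 and 201 against 294, 363 and 214 (log2 fold change -0.74, unadjusted p = 0.0305 and adjusted p = 0.360 in edgeR's test). *Itgb1*, another integrin chain that can bind angiopoietins, and *Mmp14* and *Adam17*, proteases that can shed Tie receptor ectodomains, had log2 fold changes of 0.12, -0.04 and 0.42.

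Of 25 signalling genes below Tie2, 23 were tested, with 12 below and 11 above 0 and a median of -4.94e-04. *Shc1*, an adaptor bound by the activated receptor, was at 9765, 9901 and 9068 in knockout and at 7813, 7289 and 6910 in wildtype libraries (log2 fold change 0.38, SE 0.12, adjusted p = 0.2996 in edgeR's test). *Mapk3*, which encodes the kinase ERK1, was at 7044, 7180 and 6713 against 10816, 10725 and 8042 (log2 fold change -0.50, SE 0.16, adjusted p = 0.294). These 2 were the genes of this list with an unadjusted p under 0.05 in edgeR's test (11.8% of all genes tested had one). Neither gene's groups overlapped. Of the 23 tested genes, 3 were lower and 2 higher in knockout libraries without overlap, and 19.9% of all genes tested were without overlap. The transcript of *Foxo1*, the transcription factor held inactive by this pathway, had means of 4294 and 4296. *Nos3*, the endothelial nitric oxide synthase, had at most 10 reads in a library and *Grb7* at most 13.

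Of 16 transcription factors known to act on these 4 genes, 13 were tested, with a median log2 fold change of -0.03. *Epas1*, the hypoxia-inducible factor HIF-2α, was at 5481, 5465 and 2914 in knockout and at 2533, 1960 and 2135 in wildtype libraries (log2 fold change 1.06, SE 0.27, adjusted p = 0.192 in edgeR's test). *Foxc2*, a forkhead factor of vessels and lymphatics, was at 844, 829 and 1194 against 1651, 3545 and 1551 (log2 fold change -1.23, SE 0.36, adjusted p = 0.260). Like *Angpt2*, *Foxc2* was lower in every knockout library and highest in wildtype replicate 2, and without that library its log2 fold change was -0.75. *Elf1* of this list had the same pattern, at 2085, 1922 and 1875 in knockout against 2113, 3490 and 2704 in wildtype libraries. Of all genes tested, 9.57% were lower in every knockout library than in any wildtype library, and 26.8% were highest in wildtype replicate 2. Of the ETS factors, *Ets1* had a log2 fold change of 0.90 (adjusted p = 0.437 in edgeR's test) and *Elf1* of -0.50 (adjusted p = 0.392), both without overlap. The groups overlapped for *Fli1* (0.64) and *Elf4* (-0.03), whereas *Erg* had at most 15 reads. *Tal1* and *Prox1* were also too low to be tested.

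All 12 FOXO target genes were tested, with 8 below and 4 above 0 and a median log2 fold change of -0.27. *Fbxo32*, which encodes the ubiquitin ligase atrogin-1, was at 1176, 1266 and 1147 in knockout and at 2538, 2236 and 2766 in wildtype libraries. With small spread in both genotypes, its log2 fold change of -1.07 (SE 0.12) had an adjusted p of 0.0619 in edgeR's test with all 6 libraries and of 0.0167 without wildtype replicate 2. In the fit without that library 2.88% of 13728 genes passed the threshold. When knockout replicates 1 and 2 were also summed, 0 of the 62 list genes tested passed it. *Gadd45a*, a growth arrest gene (log2 fold change -1.04, unadjusted p = 0.0332 in edgeR's test), and *Sod2*, the mitochondrial superoxide dismutase (-0.33, unadjusted p = 0.0328), were also lower without overlap. The other 9 genes, *Klf15*, *Cdkn1b* and *Irs2* among them, each had an unadjusted p of 0.05 or more. Of all genes tested, 9.57% were lower in knockout libraries without overlap and 11.8% had an unadjusted p under 0.05.

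**Figure D5:**
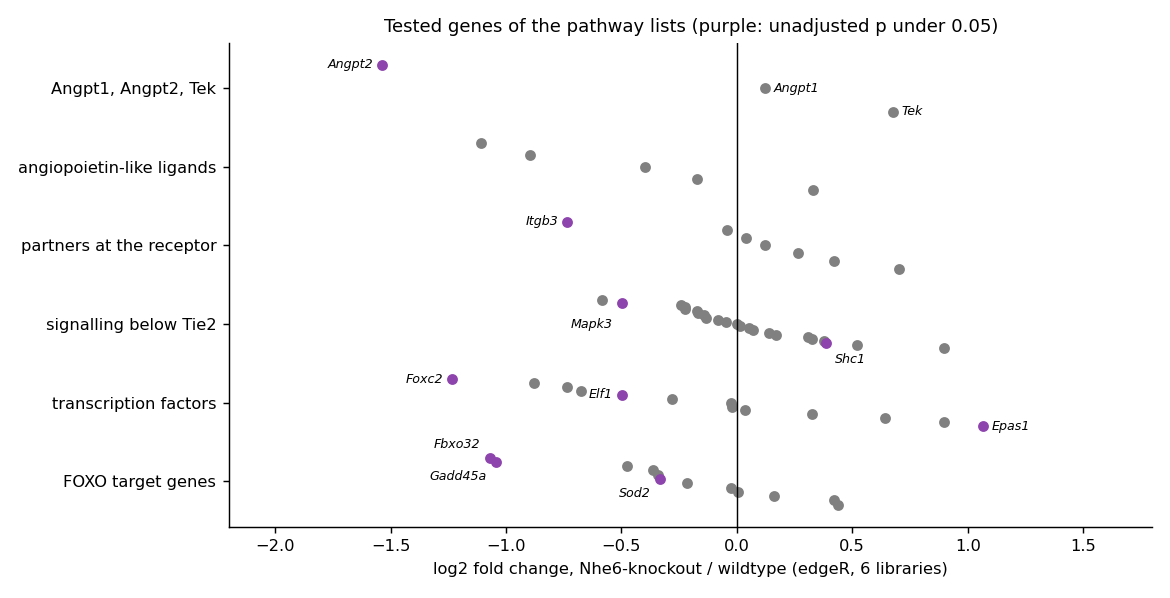
Log2 fold changes (x axis, *Nhe6*-knockout over wildtype, all 6 libraries) of *Angpt1*, *Angpt2* and *Tek* and of the 60 tested genes of the 5 lists (rows). Each point is 1 gene, purple where the unadjusted p in edgeR's test was under 0.05. *Angpt2* at -1.54 lies further from 0 than any gene of the lists, whose points run from -1.23 (*Foxc2*) to 1.06 (*Epas1*).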

How the data were processed

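RNA of 6 untreated cultures was made into stranded, poly(A)-enriched libraries and sequenced with a 75 cycle kit. The authors deposited raw counts for each gene symbol, neither normalized nor filtered. The submitters' processing notes name bcl2fastq 2.20.0.422, STAR 2.7.7a, HTSeq 0.13.5, DESeq2 1.26.0 and the build mm10. The annotation release and strand setting are not given in the sources used here. Summary lines that name no gene held 21.5% to 23.6% of the reads of a library and were left out. Since uniquely counted reads of a gene and an antisense partner depend on the strand setting, the values of *Angpt1* carry that limit.

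Genes were kept by filterByExpr (minimum count 10, by genotype), normalized by TMM (factors 0.976 to 1.03) and tested two-sided with edgeR 4.0.16 (quasi-likelihood, R 4.3.3). P-values were adjusted by the Benjamini-Hochberg method across every tested gene, and the threshold was 0.05. SEs were derived from the F statistic as the absolute log2 fold change over the root of F. Ratios within a library used 0.5 added to each count and an exact permutation test, whose smallest p is 0.1 with all 6 libraries and 0.2 with 1 left out. Levels per kb used the merged exons of GENCODE M21 (GRCm38), in which 98.5% of the symbols were matched. With 25587097 to 29126232 reads on genes, a count of 0 allows 3 reads, and limits and intervals of counts cover counting error only. The labels do not say whether the cultures of a genotype are independent beyond their replicate numbers, so p-values measure the spread between these cultures.

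The text may name the members, genes of the lists, genes overlapping a member and, for each member averaging 100 or more normalized counts, the 3 genes with the most similar profile. The members, lists and tests were chosen with earlier results of these data known. The level of the gene targeted in the knockout line is not reported here. Alternatives were DESeq2 size factors, upper-quartile normalization, 2 other filters, DESeq2 1.42.0, limma-voom (limma 3.58.1), a replicate block, leaving out each culture, summing knockout replicates 1 and 2 and, added after seeing the data, that sum without wildtype replicate 2. The scripts were tested on simulated data.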

Additional observations from a re-analysis of the deposited data

How the results depend on the processing

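With all 6 libraries none of *Angpt1*, *Angpt2* and *Tek* passed the threshold. Over 15 alternatives *Angpt2* stayed below 0 (log2 fold change -1.86 to -0.63, adjusted p 0.0576 to 0.869, the lowest from DESeq2) and *Tek* above 0 (0.28 to 1.68, adjusted p 0.0342 to 0.999). *Tek* passed the threshold without wildtype replicate 2 (1.68). *Angpt1* was above 0 in 11 and below 0 in 4 alternatives, and its log2 fold change ranged from -0.25 to 0.99 when 1 culture was left out and was -0.11 with knockout replicates 1 and 2 summed and wildtype replicate 2 left out. The difference in the log2 ratio of *Angpt2* to *Angpt1* ranged from -2.51 to -0.67 when 1 culture was left out, with no p under 0.2 possible. That of *Tie1* to *Tek* ranged from -2.95 to -0.91. *Tie1* had 0 reads in every library without wildtype replicate 3.

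Over all genes, edgeR called 9, against 21 with no filter beyond 1 count, 21 with at least 10 counts in every library, 627 with DESeq2's Wald test, 1 with knockout replicates 1 and 2 summed, 1 with that sum and wildtype replicate 2 left out, and 0 to 395 without 1 culture (395 without wildtype replicate 2, 4, 2, 1 and 1 without wildtype replicates 1 and 3 and knockout replicates 1 and 2, 0 without knockout replicate 3, where 1371 genes had an unadjusted p under 0.05). Of the list genes 0 were called, against 4 with DESeq2, 1 without wildtype replicate 2 and 0 in the other fits without 1 culture. The cause was not tested.

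Both genotypes carry replicate numbers 1 to 3, but nothing states that a number marks a shared batch. Deviations of same-numbered cultures correlated at 0.21, -0.19 and 0.11, and not every culture correlated best with its own number. With a replicate block 2 genes were called, and the log2 fold changes were 0.36 for *Angpt1*, -1.32 for *Angpt2* and 1.04 for *Tek*, without a call. The ratio difference of the ligands under that pairing kept its value of -1.70 (exact permutation p = 0.25, the smallest that 3 pairs can give).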

Other observations

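Genes of the cell types that surround stria capillaries varied between the cultures. Of 15 pericyte and smooth muscle markers 13 were tested (median log2 fold change 0.51), none of them past the adjusted threshold in edgeR's test. Of these 13, 3 had an unadjusted p under 0.05 (11.8% of all genes tested did). *Notch3*, a receptor of mural cells, was at 1843, 1946 and 2830 normalized counts in *Nhe6*-knockout and at 692, 1380 and 722 in wildtype libraries (log2 fold change 1.24, SE 0.32, adjusted p = 0.209 in edgeR's test, and 0.0307 without wildtype replicate 2). In the fit without that library 2.88% of 13728 genes passed the threshold. With knockout replicates 1 and 2 also summed, 1 of 13586 genes passed it, and that gene was lower in knockout cells. Of the 13 genes, 7 had a log2 fold change above 0 and 6 below 0. Groups did not overlap for 5 that were higher and 1 that was lower in knockout cells (19.9% of all genes tested did not overlap). Without wildtype replicate 2 the median log2 fold change was 0.91. In that fit *Acta2* went from -3.14 to 3.63, *Tagln* from -2.02 to 1.16 and *Cspg4* from -1.27 to 0.55, while *Vtn*, *Myh11* and *Anpep* stayed below 0. *Anpep*, an aminopeptidase of pericytes, was at 4087, 4126 and 3022 in knockout and at 5048, 5012 and 5332 in wildtype libraries (log2 fold change -0.45, adjusted p = 0.327 in edgeR's test). *Pdgfrb*, the pericyte receptor for platelet-derived growth factor, was high in all cultures, at 18472, 18992 and 18361 against 14685, 7793 and 16716. Melanocyte markers summed to 405 to 710 normalized counts in knockout libraries and to 851, 288 and 1172 in wildtype libraries, with 4 of 8 tested. *Mitf* was read in every library, at 254 to 728. In wildtype replicate 3 *Tyrp1* was at 290 and *Dct* at 178, against 0 to 5.16 and 0 to 2.06 in the other libraries.

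Among the endothelial receptors for vascular endothelial growth factor, *Flt1* was at 578, 561 and 378 in knockout and at 920, 3175 and 1150 in wildtype libraries (log2 fold change -1.79, SE 0.50, adjusted p = 0.242 in edgeR's test, and -1.04 without wildtype replicate 2). *Kdr*, the main signalling receptor of that family, was low in every library, at 21.2, 19.5 and 18.0 against 0.978, 70.2 and 7.49. *Flt1* and *Kdr* were both highest in wildtype replicate 2, as were *Angpt2* and *Tek*. *Emcn* was lowest there, at 410 against 9900 to 18393 in the other 5 libraries. Of the 10 tested endothelial markers, 5 were highest and 5 lowest in wildtype replicate 2. Of all genes tested, 26.8% were highest and 26.5% lowest in that library.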
